A study of Mus musculus with 8 samples.

Results

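The 9 genes described here belong to the calcineurin and NFAT pathway, and their transcripts were counted by RNA-seq in cultures of bEnd.3, an immortalised line of mouse brain endothelium. The genes encode the NFAT transcription factors Nfatc1, Nfatc2, Nfatc3, Nfatc4 and Nfat5, the calcineurin subunits Ppp3ca, Ppp3cb and Ppp3r1, and the calcineurin inhibitor Rcan1. They were found by symbol, and all 9 were among the 15452 named genes of the table. Nfatc2 was picked because its counts were higher in the Norrin libraries than in the vehicle libraries, so its values are given as a description with no test. The other 8 were taken as picked by family name and function, though the members were listed with earlier results of these data known.

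Cells of 1 line received recombinant Norrin at 200 ng/ml, or a vehicle of buffered saline with albumin, and were harvested after 24 h. There were 4 libraries per group, and the labels name no other treatment or allele in either group. Norrin binds Frizzled-4 on endothelial cells and so stabilises beta-catenin, and the study asked which genes it induced. Total counts per library ran from 13445380 to 14905863 in the Norrin libraries and from 12463942 to 15220576 in the vehicle libraries.

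Calcineurin is a phosphatase made of a catalytic and a regulatory subunit, and it is switched on by calcium through calmodulin. It removes phosphate groups from NFATc proteins, which then enter the nucleus, while kinases put the phosphates back and send the proteins out again. In endothelium this pathway is known for responses to vascular endothelial growth factor and thrombin, and Nfatc1 for its part in heart valve formation. Nfat5 shares the DNA-binding domain but lacks the calcineurin docking region, and is known as the factor of the response to high salt.

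The sequence upstream of the start sites is shown for the 3 NFAT genes that were higher under Norrin, and for the internal start of Rcan1, which is known as a start driven by NFAT itself. Start sites came from RefSeq on GRCm38.p6, where 7 of the 9 members matched an entry. Each line holds the 250 bases before a start, 5′ to 3′ on the gene's strand. Capitals mark GGAAA, the core bound by NFAT proteins, on either strand. CTTTGA, a core bound by the TCF and LEF partners of beta-catenin, was searched in the same way, and the motifs can share at most 1 base. The windows are chr2:168601658-168601907 and chr2:168590366-168590615 on the minus strand for the outer and inner start of Nfatc2, chr14:55824545-55824794 on the plus strand for Nfatc4, chr8:107293220-107293469 on the plus strand for Nfat5 and chr16:92400079-92400328 on the minus strand for Rcan1.
Nfatc2, outer start: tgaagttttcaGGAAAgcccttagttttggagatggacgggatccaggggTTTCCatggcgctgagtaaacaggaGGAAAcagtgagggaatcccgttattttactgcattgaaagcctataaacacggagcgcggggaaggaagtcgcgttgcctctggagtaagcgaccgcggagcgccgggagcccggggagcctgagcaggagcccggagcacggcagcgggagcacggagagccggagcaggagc
Nfatc2, inner start: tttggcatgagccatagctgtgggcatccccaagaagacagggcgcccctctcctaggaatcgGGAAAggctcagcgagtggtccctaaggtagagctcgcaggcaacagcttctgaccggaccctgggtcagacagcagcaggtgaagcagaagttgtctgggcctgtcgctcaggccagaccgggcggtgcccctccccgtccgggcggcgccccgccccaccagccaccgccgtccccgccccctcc
Nfatc4: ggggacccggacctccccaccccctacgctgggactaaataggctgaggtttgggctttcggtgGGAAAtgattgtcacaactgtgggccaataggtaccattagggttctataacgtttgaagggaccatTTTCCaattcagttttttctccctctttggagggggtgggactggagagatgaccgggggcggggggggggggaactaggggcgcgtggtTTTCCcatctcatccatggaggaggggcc
Nfat5: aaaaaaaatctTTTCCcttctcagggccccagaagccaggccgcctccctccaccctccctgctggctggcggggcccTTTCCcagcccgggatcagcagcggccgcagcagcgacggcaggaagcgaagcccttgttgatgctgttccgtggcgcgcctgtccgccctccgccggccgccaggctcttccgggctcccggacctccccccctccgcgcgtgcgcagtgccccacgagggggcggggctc
Rcan1, internal start: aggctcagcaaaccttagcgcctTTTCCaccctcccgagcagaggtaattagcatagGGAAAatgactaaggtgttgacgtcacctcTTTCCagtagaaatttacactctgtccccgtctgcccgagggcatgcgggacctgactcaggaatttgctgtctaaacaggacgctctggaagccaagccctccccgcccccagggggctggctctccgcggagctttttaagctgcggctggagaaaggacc

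The outer Nfatc2 window, the Nfatc4 window and the internal Rcan1 window each held 3 GGAAA matches, the Nfat5 window 2 and the inner Nfatc2 window 1. Among 32851 upstream windows of the same length in the RefSeq table, 6.39% held at least 3 such matches, 21.4% at least 2 and 55.6% at least 1. The members had 10 windows in all, and the 5 shown were not picked at random. A window of Ppp3cb, which did not pass the test below, also held 3. The first window of Nfatc3 held 1, while its second window, the outer Rcan1 window and the Ppp3r1 window held 0. CTTTGA had 0 matches in the 5 windows shown and 1 in a window of Nfatc3, against at least 1 in 13.8% of the 32851 windows. These letters describe the windows and say nothing of whether a factor binds there. The counts are per gene, so reads from the outer and inner starts of Nfatc2 or of Rcan1 were not told apart.

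Nfatc2, a factor best known from T cells, was scarce without Norrin. Its counts were 37, 53, 50 and 28 in Norrin libraries 1 to 4, against 7, 21, 15 and 4 in vehicle libraries 1 to 4. Scaled to library size as CPM (counts per unit of library size, with TMM factors), these were 2.5, 3.86, 3.66 and 2.06 CPM in the Norrin libraries and 0.559, 1.49, 0.965 and 0.321 CPM in the vehicle libraries. All 4 Norrin libraries lay above all 4 vehicle libraries, and within the Norrin group libraries 2 and 3 were the higher ones. The mean was 3.02 ± 0.875 CPM in Norrin libraries and 0.833 ± 0.51 CPM in vehicle libraries (SD, n = 4 each). The fitted difference was 1.82 ± 0.39 (SE) on the log2 scale, a 3.54-fold higher level in Norrin libraries. Without a single library it ran from 1.57 to 2.24. In the authors' deposited table the Nfatc2 group values are 1.435 RPKM under Norrin and 0.351 RPKM under vehicle. A count of 3, taken as the floor of detection, corresponded to 0.203 to 0.221 CPM in Norrin libraries and 0.193 to 0.241 CPM in vehicle libraries. Vehicle library 4, with 4 counts of Nfatc2, was close to it.

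Nfatc4, the NFATc gene known from heart, muscle and nerve, rose under Norrin. Its counts were 37, 52, 59 and 35 in Norrin libraries 1 to 4, against 11, 16, 20 and 17 in vehicle libraries 1 to 4. In CPM it stood at 2.5, 3.79, 4.32 and 2.58 in the Norrin libraries and at 0.878, 1.13, 1.29 and 1.37 in the vehicle libraries. The groups did not overlap, and Norrin libraries 2 and 3 were again the higher ones of their group. The mean of Nfatc4 was 3.3 ± 0.899 CPM in Norrin libraries and 1.17 ± 0.215 CPM in vehicle libraries (SD, n = 4 each). It was 2.81-fold higher, a log2 fold change of 1.49 ± 0.33 (SE), with an adjusted p = 0.00877 by edgeR's quasi-likelihood test with Benjamini-Hochberg adjustment over 13666 genes. Without Norrin replicate 3 the Nfatc4 difference was 1.34 with an adjusted p = 0.0592, and over the 14 alternatives the adjusted p ran from 0.00229 to 0.0592.

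Nfat5, the tonicity-responsive factor, also rose, by less and from a far higher level. Its counts were 6456, 6374, 6530 and 6321 in Norrin libraries 1 to 4, against 4244, 4817, 5973 and 5077 in vehicle libraries 1 to 4. Scaled, these were 437, 465, 478 and 466 CPM in the Norrin libraries and 339, 341, 384 and 408 CPM in the vehicle libraries. The Norrin libraries all lay above the vehicle libraries, which differed more among themselves. The mean of Nfat5 was 461 ± 17.2 CPM in Norrin libraries and 368 ± 33.8 CPM in vehicle libraries (SD, n = 4 each). The log2 fold change was 0.33 ± 0.05 (SE), or 1.25-fold, with an adjusted p = 0.000238 by edgeR. Nfat5 passed in all 14 alternatives, at adjusted p values from 3.79e-06 to 0.00256.

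Nfatc1, the factor of valve endocardium and osteoclasts, did not pass the test. It had 39.3, 52, 48.6 and 51.7 CPM in Norrin libraries 1 to 4, against 67.1, 51.2, 57.6 and 59.7 CPM in vehicle libraries 1 to 4. Norrin library 1 was the lowest and vehicle library 1 the highest of the 8, and vehicle library 2 lay within the Norrin range. The mean of Nfatc1 was 47.9 ± 5.92 CPM in Norrin libraries and 58.9 ± 6.58 CPM in vehicle libraries, a log2 difference of −0.30 (95% interval −0.49 to −0.11, edgeR adjusted p = 0.0969). Without vehicle replicate 2, Nfatc1 passed at −0.36 (adjusted p = 0.046, and 0.046 to 0.384 over the 14 alternatives). Nfatc3, which is broadly expressed, had 61.7 to 75.9 CPM in Norrin libraries and 67.7 to 78.3 CPM in vehicle libraries, a difference of −0.08 on the log2 scale (−0.23 to 0.07, adjusted p = 0.796). The interval for Nfatc3 leaves room for a small change in either direction.

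**Figure D1:**
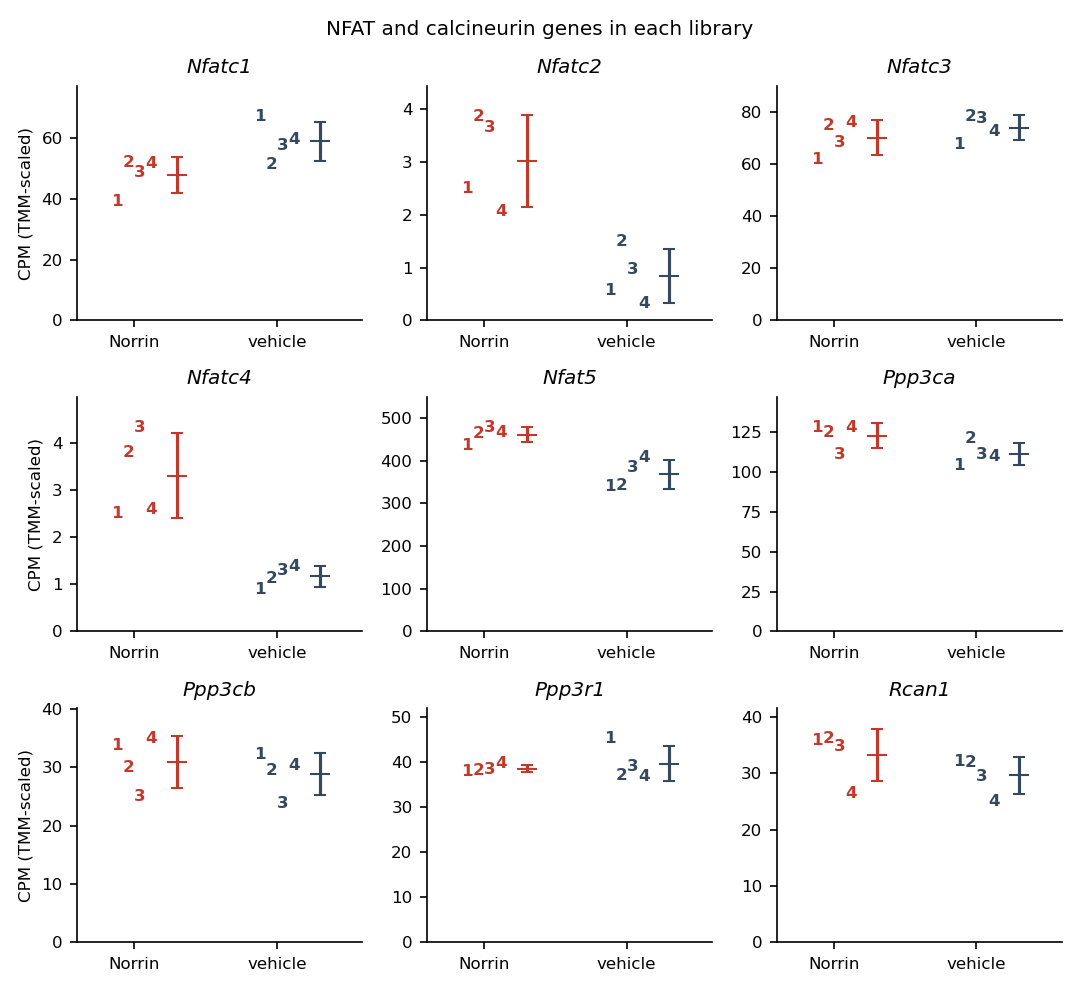
Level of each of the 9 genes in CPM (linear axis from 0, TMM-scaled) in the Norrin libraries and the vehicle libraries. Each numeral is the library with that replicate number, and the bar beside it is mean ± SD (n = 4). Norrin and vehicle libraries are apart for Nfatc2, Nfatc4 and Nfat5 and overlap for the other 6.

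The catalytic subunits of calcineurin, which carry out the dephosphorylation, did not pass. Ppp3ca, the alpha catalytic subunit, had 111 to 128 CPM in Norrin libraries and 104 to 121 CPM in vehicle libraries, a log2 difference of 0.14 (95% interval 0.02 to 0.27, edgeR adjusted p = 0.328). Ppp3cb, the beta catalytic subunit, had 25 to 34.9 CPM in Norrin libraries and 23.8 to 32.1 CPM in vehicle libraries, at 0.10 (−0.13 to 0.33, adjusted p = 0.838). In Ppp3ca, 3 of the 4 Norrin libraries lay above every vehicle library and library 3 within their range, and in Ppp3cb the groups overlapped over most of their range. The regulatory subunit gene Ppp3r1, whose product binds calcium, had 38 to 39.7 CPM in Norrin libraries and 36.9 to 45.2 CPM in vehicle libraries, at −0.04 (−0.22 to 0.14, adjusted p = 0.934). In the GENCODE M21 annotation Ppp3r1 shares exon sequence with Wdr92 and Nfatc3 with Esrp2, whose highest counts in a library were 186 and 26.

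Rcan1, which encodes an inhibitor of calcineurin and is a classical NFAT target, had 35.9, 36.2, 34.8 and 26.4 CPM in Norrin libraries 1 to 4. In vehicle libraries 1 to 4 it had 32.2, 31.9, 29.5 and 25 CPM. Library 4 was the lowest in both groups, and Norrin library 4 lay below 3 of the vehicle libraries. The mean of Rcan1 was 33.3 ± 4.66 CPM in Norrin libraries and 29.6 ± 3.35 CPM in vehicle libraries, a log2 difference of 0.17 (95% interval −0.05 to 0.39, edgeR adjusted p = 0.628). Without Norrin replicate 4 it was 0.27 (adjusted p = 0.219).

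Of the 8 members other than Nfatc2, edgeR called 2, both higher, while 6 did not pass and 0 were called lower; among all 13666 genes tested, 2.17% passed, with 1.2% higher and 0.966% lower. DESeq2 and limma-voom also called 2 of the 8, against 3.08% of the 13135 genes with an adjusted p in DESeq2 and 1.78% of all tested genes in limma-voom. An unadjusted p under 0.05 was found in 4 of the 8, Nfatc1 and Ppp3ca besides the called ones, against 1548 of all tested genes (11.3%). The Norrin libraries lay wholly above the vehicle libraries in the same 2 of the 8 genes, against 3.43% of all tested genes, and wholly below them in 0 of the 8, against 3.58%. The median log2 difference of the 8 was 0.12, against 0.00 over all tested genes. All 9 members passed the filter on low counts.

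**Figure D2:**
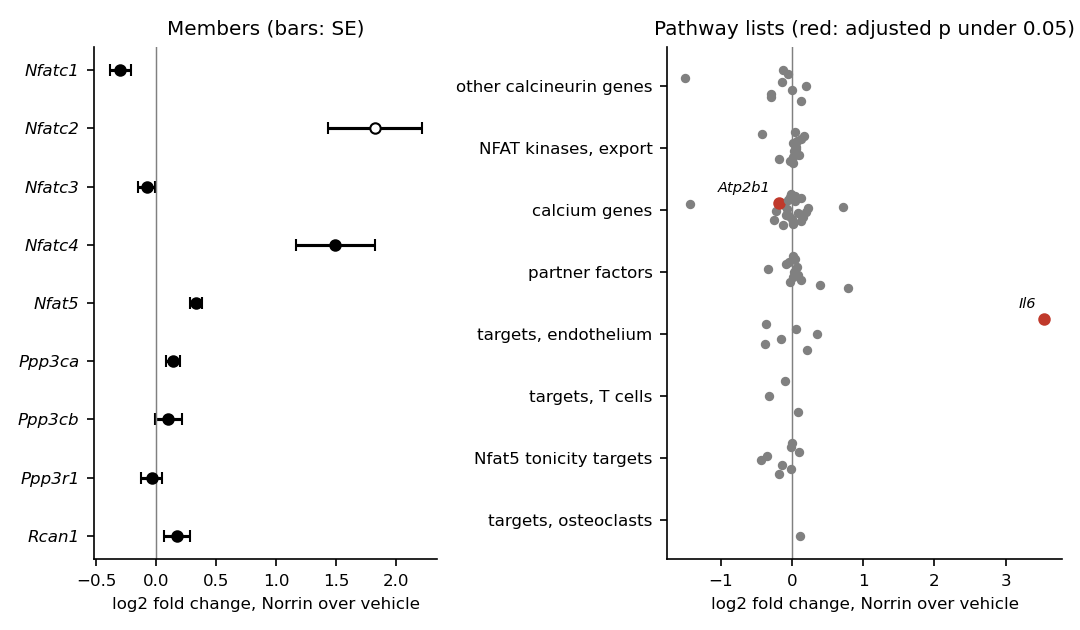
Log2 fold change, Norrin over vehicle. Left, the 9 members with bars of 1 SE, Nfatc2 as an open circle because it was picked for its rise; right, each tested gene of 8 pathway lists, red where the adjusted p was under 0.05. Nfatc2 (1.82) and Nfatc4 (1.49) stand far from the other members. Only Atp2b1 and Il6 are red on the right, and the rise of Il6 was known when its list was made.

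Levels of different genes were compared per length, as RPKM (reads scaled to gene length and library size), computed in each library with the gene lengths that the deposited RPKM values imply. Under Norrin, Nfat5 was the highest of the members at 120 ± 4.86 RPKM, followed by Ppp3ca at 82.3 ± 5.99, Ppp3r1 at 75 ± 2.12 and Rcan1 at 52.1 ± 7.01 RPKM (SD, n = 4 each). Nfatc3 stood at 21.7 ± 2.2, Ppp3cb at 20.6 ± 3.05, Nfatc1 at 19.5 ± 2.52, Nfatc2 at 1.48 ± 0.427 and Nfatc4 at 1.22 ± 0.329 RPKM. Under vehicle, Nfat5 was at 96.3 ± 9.56, Ppp3r1 at 77.2 ± 6.89, Ppp3ca at 74.7 ± 5.12 and Rcan1 at 46.5 ± 5.13 RPKM. Nfatc1 stood at 24.1 ± 2.48, Nfatc3 at 23 ± 1.82, Ppp3cb at 19.3 ± 2.14, Nfatc4 at 0.434 ± 0.0838 and Nfatc2 at 0.411 ± 0.253 RPKM under vehicle. In the vehicle libraries the ranges overlapped between Ppp3r1 and Ppp3ca, between Nfatc1 and Nfatc3, between Nfatc3 and Ppp3cb, and between Nfatc4 and Nfatc2, so those neighbours were not separated. With the length of all GENCODE M21 exons in place of the implied lengths, the members kept this order under vehicle. Under Norrin the ranges overlapped between Ppp3ca and Ppp3r1, among Nfatc3, Ppp3cb and Nfatc1, and between Nfatc2 (1.02 to 1.9 RPKM) and Nfatc4 (0.922 to 1.59 RPKM). With exon lengths the order under Norrin turned within these neighbours: Nfatc4 (0.566 RPKM) came above Nfatc2 (0.285 RPKM), and Nfatc1 (6.41 RPKM) above Nfatc3 (5.98 RPKM) and Ppp3cb (3.5 RPKM).

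The calcium-regulated NFAT transcripts were nearly all Nfatc1 and Nfatc3 in both groups. Nfatc2 and Nfatc4 together made up 5.8%, 6.94%, 7.67% and 4.24% of the summed RPKM of Nfatc1 to Nfatc4 in Norrin libraries 1 to 4. In vehicle libraries 1 to 4 they made up 1.23%, 2.49%, 1.96% and 1.4%. The mean share was 6.16% ± 1.49 in Norrin libraries and 1.77% ± 0.573 in vehicle libraries (SD, n = 4 each), given without a test because Nfatc2 was picked for its rise. The share of Nfatc4 alone was 2.78% ± 0.664 in Norrin libraries and 0.908% ± 0.173 in vehicle libraries. With GENCODE M21 exon lengths it was 4.27% in Norrin libraries and 1.39% in vehicle libraries. The share of Nfatc1 was 44.3% ± 0.978 in Norrin libraries and 50.2% ± 4.59 in vehicle libraries, and that of Nfatc3 was 49.5% ± 1.64 in Norrin libraries and 48% ± 4.05 in vehicle libraries. The summed level of these 4 genes was 37 to 47.8 RPKM in Norrin libraries and 46.3 to 49.5 RPKM in vehicle libraries, with overlap.

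**Figure D3:**
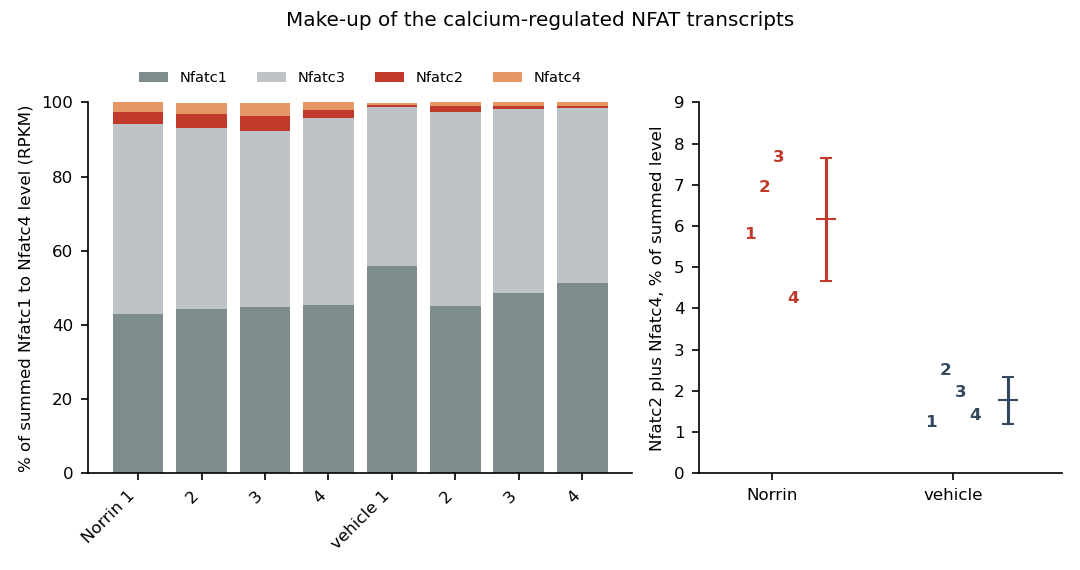
Left, share in percent of the summed Nfatc1 to Nfatc4 level (RPKM) held by each gene in each library; right, the share of Nfatc2 plus Nfatc4, where numerals are replicate numbers and bars are mean ± SD (n = 4). Nfatc2 plus Nfatc4 hold 4.24% to 7.67% in the Norrin libraries and 1.23% to 2.49% in the vehicle libraries.

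Among the catalytic calcineurin transcripts, which include the gamma subunit gene Ppp3cc, the groups' mean shares differed by less than the spread between libraries. Ppp3ca made up 75.5% ± 1.46 of their summed RPKM in Norrin libraries and 74.9% ± 3.27 in vehicle libraries. Ppp3cb made up 18.8% ± 1.33 in Norrin libraries and 19.4% ± 2.21 in vehicle libraries, and Ppp3cc 5.66% ± 1.23 in Norrin libraries and 5.7% ± 1.35 in vehicle libraries. These shares depended on the length used. With GENCODE M21 exon lengths Ppp3ca made up 65.7% in Norrin libraries and 65.1% in vehicle libraries. Ppp3cc then made up 15.7% in Norrin libraries and 15.8% in vehicle libraries. Of 9 other calcineurin subunits, inhibitors, anchors and immunophilins tested, 0 passed with edgeR, DESeq2 or limma-voom, against 2.17% of all tested genes with edgeR. An unadjusted p under 0.05 was found in 1 of the 9, against 11.3% of all tested genes. That gene, Chp2, named after its values were seen, had 0.439 ± 0.362 CPM in Norrin libraries and 1.24 ± 0.821 CPM in vehicle libraries. The list's median was −0.12 on the log2 scale. Fkbp1a, the target of the calcineurin-blocking drug tacrolimus, was at −0.06 (95% interval −0.16 to 0.05), and the calcineurin inhibitor gene Cabin1 was at 0.00 (−0.12 to 0.12).

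Upstream of calcineurin, 24 genes of calcium release, store-operated entry, calcium pumps and calmodulin were tested. Of these, 1 was called and 23 did not pass, against 2.17% of all tested genes called, with 0.966% lower. The called gene, Atp2b1, a plasma membrane pump that exports calcium, fell. It had 207, 207, 212 and 202 CPM in Norrin libraries 1 to 4, against 240, 227, 242 and 234 CPM in vehicle libraries 1 to 4, with no overlap. Its log2 fold change was −0.19 ± 0.05 (SE, edgeR adjusted p = 0.0262). Atp2b1 no longer passed in 5 fits that each left out a library (vehicle replicates 1, 3 and 4, Norrin replicates 1 and 2), at adjusted p values of 0.0607 to 0.11. Over the 14 alternatives its adjusted p ran from 0.00263 to 0.11. The median of the list was −0.01, and 7 of the 24 had an unadjusted p under 0.05, against 11.3% of all tested genes. They lay in both directions. Named after their values were seen, the higher ones were the phospholipase C genes Plcb1 at 0.20 (95% interval 0.07 to 0.32, edgeR adjusted p = 0.0961) and Plcb4 at 0.22 (0.05 to 0.39), the calcium release channel gene Itpr2 at 0.15 (0.02 to 0.27) and the channel gene Trpc1 at 0.72 (0.06 to 1.38). Plcb1 and Trpc1 lay wholly above in the Norrin libraries, against 3.43% of all tested genes. Plcb1 passed with the replicate block and without Norrin replicate 4, and Plcb4 passed without Norrin replicate 4. The lower ones were Atp2b1, Atp2a3 and the endoplasmic reticulum pump gene Atp2a2 at −0.11 (−0.20 to −0.02). DESeq2 called 2 of the list, Atp2b1 and Atp2a3, against 3.08% of the genes with an adjusted p in DESeq2. Like Atp2a2, Atp2a3 is a pump gene of the endoplasmic reticulum. Atp2a3 had 0.905 ± 0.454 CPM in Norrin libraries and 2.5 ± 0.969 CPM in vehicle libraries (edgeR adjusted p = 0.0579), and it passed without vehicle replicate 2. Atp2b1 and Atp2a3 lay wholly below in the Norrin libraries, against 3.58% of all tested genes. The calcium sensor gene Stim1 was at −0.12 (−0.30 to 0.07) and the channel gene Orai1 at 0.01 (−0.19 to 0.21).

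Of 16 genes of NFAT kinases, competitors and nuclear export, 0 passed with edgeR, DESeq2 or limma-voom, against 2.17% of all tested genes with edgeR. An unadjusted p under 0.05 was found in 2 of the 16, near the 11.3% of all tested genes. These were, named after their values were seen, the NFAT kinase gene Dyrk1a at −0.18 (95% interval −0.31 to −0.05, edgeR adjusted p = 0.177) and Lrrk2 at 0.17 (0.05 to 0.30, adjusted p = 0.17). In the Norrin libraries Dyrk1a lay wholly below, against 3.58% of all tested genes, and Lrrk2 wholly above, against 3.43%. The most abundant genes of the list were Csnk1a1, a casein kinase gene, at 0.03 (−0.06 to 0.12) and Xpo1, the nuclear export receptor gene, at 0.04 (−0.07 to 0.14). Gsk3b, a kinase that acts on both NFAT and beta-catenin, was at −0.03 (−0.18 to 0.13). Of 13 partner factors tested, 0 passed with edgeR, DESeq2 or limma-voom, against 2.17% of all tested genes with edgeR. The median was 0.03 for the partners and 0.04 for the kinases. Of the 13 partners, 1 had an unadjusted p under 0.05, against 11.3% of all tested genes. Named after its values were seen, this was Fos, at 5.74 ± 0.731 CPM in Norrin libraries and 3.36 ± 1.65 CPM in vehicle libraries (edgeR adjusted p = 0.193). Fos lay wholly above in the Norrin libraries, against 3.43% of all tested genes. Jund and the coactivator gene Crebbp, the most abundant partners, were at 0.03 (−0.12 to 0.19) and 0.01 (−0.09 to 0.11).

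Downstream, 8 genes described as NFAT targets in endothelium were tested, Rcan1 among them. The cytokine gene Il6 rose and 7 did not pass. The rise of Il6 was known when the list was made, so only the 7 were read beside the 2.17% of all tested genes that passed. The list median was 0.11. Il6 had 9.41, 12, 7.97 and 6.34 CPM in Norrin libraries 1 to 4 and 1.28, 0.637, 0.257 and 0.964 CPM in vehicle libraries 1 to 4. Its log2 fold change was 3.54 ± 0.32 (SE), given as a description with no test. Besides Il6, 2 of the 8 targets had an unadjusted p under 0.05, against 11.3% of all tested genes. The same 2 lay lower in all 4 Norrin libraries than in any vehicle library, against 3.58% of all tested genes. Named after their values were seen, these were the adhesion molecule gene Vcam1 at −0.38 (95% interval −0.63 to −0.13, edgeR adjusted p = 0.113) and the chemokine receptor gene Ackr3 at −0.36 (−0.59 to −0.13, adjusted p = 0.1). Ackr3 passed without Norrin replicate 4. The cyclooxygenase gene Ptgs2 was at 0.21 (−0.03 to 0.44), the angiopoietin gene Angpt2 at 0.35 (−0.25 to 0.96) and the receptor gene Flt1 at 0.05 (−0.03 to 0.14).

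Of 19 NFAT targets described in T cells, the table held 4, of which 3 had enough counts for a test. Of these, 0 passed with edgeR, DESeq2 or limma-voom, against 2.17% of all tested genes with edgeR. An unadjusted p under 0.05 was found in 0 of the 3, against 11.3% of all tested genes, so 3 genes are too few to differ from these shares. Nr4a1 was at 0.08 (95% interval −0.13 to 0.29), Nr4a2 at −0.33 (−0.86 to 0.20) and the list median at −0.10. Of 7 targets described in osteoclasts, 2 were in the table, and the integrin gene Itgb3, the 1 that could be tested, was at 0.11 (−0.02 to 0.25). It was called by none of edgeR, DESeq2 and limma-voom, which called 2.17%, 3.08% and 1.78% of the genes with an adjusted p.

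Among 8 tested genes of the response to high salt that Nfat5 is known to drive, 0 were called by edgeR and limma-voom. Of all tested genes, edgeR called 2.17% and limma-voom 1.78%. Below 0 lay 7 of the 8, with a median of −0.08, against 6649 of the 13666 tested genes. DESeq2, which called 404 genes in all (3.08%) against edgeR's 296, called 2 of the list, both lower. The same 2 had an unadjusted p under 0.05 by edgeR, against 11.3% of all tested genes. Named after their values were seen, these were the heat shock genes Hspa1a, at 15.3 ± 1.66 CPM in Norrin libraries and 20.7 ± 0.617 CPM in vehicle libraries (edgeR adjusted p = 0.0525), and Hspa1b, at 24.4 ± 2.66 CPM in Norrin libraries and 31.3 ± 2.9 CPM in vehicle libraries (adjusted p = 0.0832). Hspa1a lay wholly below in the Norrin libraries, against 3.58% of all tested genes, while the groups overlapped in Hspa1b. Hspa1b passed with the replicate block and without Norrin replicate 4, and Hspa1a passed without Norrin replicate 1. Hspa1a and Hspa1b are near-identical copies, so the split of reads between them is uncertain. The osmolyte transporter genes Slc5a3 and Slc6a6 were at −0.02 (95% interval −0.16 to 0.11) and −0.14 (−0.30 to 0.01), and S100a4, the most abundant of the list, at −0.01 (−0.14 to 0.11).

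The endothelial label fitted the markers: 10 of 10 endothelial genes were in the table, with Cdh5 at 2086 ± 60.1 CPM in Norrin libraries and 2109 ± 41.8 CPM in vehicle libraries. Their summed level was 7085 to 7369 CPM in Norrin libraries and 7500 to 7745 CPM in vehicle libraries. In log2 fold change 9 of 10 lay below 0, against 6649 of the 13666 tested genes. Of the 10, 1, Egfl7, was called lower by edgeR, against 0.966% of all tested genes. An unadjusted p under 0.05 was found in 5 of the 10, against 11.3%. Pecam1, Kdr and Egfl7 lay wholly below in the Norrin libraries, against 3.58% of all tested genes. The shift was uneven, from −0.16 for Egfl7 to 0.04 for Erg on the log2 scale. Its cause and its part in the NFAT results were not tested. In bulk RNA, fewer cells of a type and less RNA of these genes per cell cannot be told apart. T cells, the best known source of Nfatc2, had 2 of 8 markers in the table, Lck and Zap70, with a summed level of 3.5 to 5.05 CPM in Norrin libraries and 2.63 to 5.38 CPM in vehicle libraries. The other 6, among them Cd3e, Cd4 and Cd8a, were searched for by symbol and had no entry in the table. Markers of B cells, myeloid cells and osteoclasts, mural cells, fibroblasts, and neurons and astrocytes had 1 of 5, 2 of 9, 3 of 8, 2 of 6 and 2 of 8 genes in the table. The summed level of each of these lists was at most 5.21 CPM in Norrin libraries and 7.02 CPM in vehicle libraries, with overlapping ranges.

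The genes most like Nfatc2 were found by the root mean square difference, over the 8 libraries, between log2 CPM profiles centred on each gene's vehicle mean. Among 10984 candidates the closest were Rp1 (0.271), Tspan13 (0.495), Pdia5 (0.513), Plxnb1 (0.525) and Npr3 (0.602). Rp1 had 1.83, 2.26, 1.9 and 1.33 CPM in Norrin libraries 1 to 4 and 0.319, 0.707, 0.836 and 0.241 CPM in vehicle libraries 1 to 4. As for Nfatc2, vehicle libraries 1 and 4 were the lower ones of Rp1, a likeness that the measure itself selects. Pdia5 was 3.22-fold higher under Norrin, at 42.4 ± 4.39 CPM in Norrin libraries and 13.1 ± 1.6 CPM in vehicle libraries. The measure includes the rise that Nfatc2 was picked for, so genes with a rise of like size come close by construction. Nfatc4, at a log2 fold change of 1.49, ranked 11 of 10984, at a difference of 0.674. Nfat5, at 0.33, ranked 649. These ranks are therefore no support beyond the fold changes. By Pearson correlation, 1 of the 5 genes, Rp1, was among the closest 5, so the list depends on the measure.

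**Figure D4:**
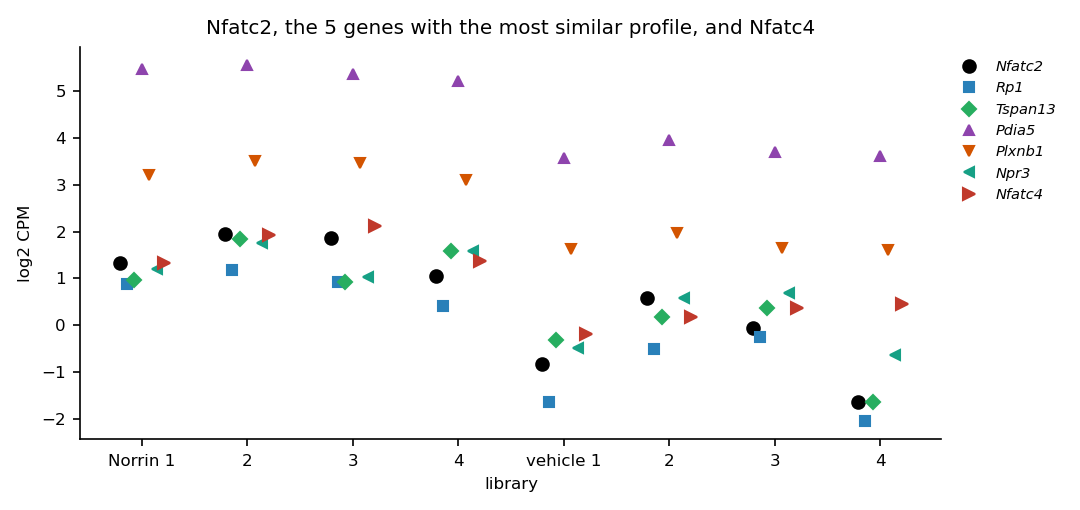
Level (log2 CPM) of Nfatc2, of the 5 genes with the most similar profile and of Nfatc4 in each Norrin and vehicle library; each symbol is 1 gene in 1 library. Nfatc2 and Rp1 are both lower in vehicle libraries 1 and 4 than in 2 and 3, while Nfatc4 stays between 0.878 and 1.37 CPM in all 4.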

How the data were processed

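Total RNA was depleted of ribosomal RNA before library preparation, per the labels' protocols. The authors deposited 1 table of estimated counts per gene and library, not normalised, per the file headers; 763 of 123616 values were not whole and were rounded. It also holds the authors' RPKM per group, and a deposited fold column, a ratio of the 2 group values. STAR is named per the submitters' processing notes; the sources used here give no build, annotation, counting tool or strand use, so overlapping genes are uncertain. The titles set the groups, though a tag calls the control untreated. The labels name biological replicates without saying what separated them, so p-values cover only variation among these 8 samples.

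The main test was edgeR's (version 4.0.16, R 4.3.3; filterByExpr, TMM, robust quasi-likelihood fit, two-sided, Benjamini-Hochberg over 13666 genes, threshold 0.05); 1786 genes and 1 unnamed row were left out. The fit's common dispersion of 0.0124 corresponds to a coefficient of variation of 11.2%. Alternatives were DESeq2 1.42.0 and its size factors, limma-voom (limma 3.58.1), other filters, a replicate block and each library left out. Gene lengths implied by the deposited RPKM differed between groups by at most 1.54% in any member. The step was tested on simulated data. Counting error only is covered by the floor of 3 counts. Replicate libraries differed by more than counting noise, at 5.72 to 15.41 chi-square units per degree of freedom. Members and lists were chosen with earlier results of these data known. Named were all members, the called genes of each list or else its 2 most abundant, the defining endothelial and T cell markers, and the 5 genes most like Nfatc2 with at least 0.5 CPM; every other gene given with values was added after its values were seen.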

Additional observations from a re-analysis of the deposited data

Results flagged for a closer look

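Rcan1 in Norrin library 4 stood at 26.4 CPM, far below the 34.8 to 36.2 CPM of the other Norrin libraries for the spread of a group of 4. It was the 1 such value among 44 groups of 4 libraries examined, where chance gives about 1 in 20 groups. Vehicle library 4 also had the lowest Rcan1 of its group, at 25 CPM.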

How the results depend on the processing

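Nfat5 and Nfatc4 kept their calls under the stricter filter and with no filter, under both other tools, with size factors in place of TMM and with the replicate block, and Nfatc1 and the other members stayed uncalled in these. With single libraries left out, the log2 fold change ran from 1.57 to 2.24 for Nfatc2, 1.34 to 1.6 for Nfatc4 and 0.29 to 0.38 for Nfat5. Members called other than Nfatc2 numbered 1 to 3, 1 without Norrin replicate 3 and 3 without vehicle replicate 2, and all genes called 206 to 452, with 452 without Norrin replicate 4. At an adjusted p under 0.01, 171 genes and 1 pathway gene (Il6) were called. Of 81 pathway genes tested, 2 were called in the main analysis, where 2.17% of all genes were. DESeq2, which called 404 genes in all, called 5 of the 81, and the replicate block called 4. With a library left out, 1 to 7 were called, 7 without Norrin replicate 4 and 1 without vehicle replicate 1, 3 or 4 or Norrin replicate 2. Il6, whose rise was known when its list was made, is in each of these counts. The replicate block called 402 genes in all and moved no member across the threshold. Replicate numbers are only numbers in the labels, and deviations of same-numbered libraries correlated at −0.02 to 0.07, under 0.1 in every pair, so they were not taken to pair the libraries; Norrin libraries 2 and 4 correlated best with their own number, and 1 and 3 with another. Log2 fold changes near 0 turned sign with a library left out: they ran from −0.07 to 0.03 for Ppp3r1, −0.03 to 0.06 for Cabin1, −0.03 to 0.05 for Crebbp, −0.02 to 0.1 for Jund, −0.03 to 0.15 for Nr4a1 and −0.08 to 0.05 for S100a4. The causes of these changes were not tested. With GENCODE M21 exon lengths, an alternative chosen after seeing the data, Nfatc2 and Nfatc4 made up 6.43% in Norrin libraries and 1.94% in vehicle libraries. Plain total counts moved no member's mean by over 1 SD. For Nfatc2 and Nfatc4, with 4 to 59 counts per library, depth limits the precision.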
